A study of Mus musculus with 6 samples.

Results

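The genes described here are the nuclear genes for the mitochondrial respiratory chain and ATP synthase in mouse liver. They were chosen by name from the deposited gene table: symbols starting with Nduf, Uqcr, Atp5 or Cox4 to Cox8, and Sdha, Sdhb, Sdhc and Sdhd, without symbols starting with Cox7a or holding a hyphen. This gave 95 of 55573 listed genes, of which 49 belonged to complex I, 4 to complex II, 8 to complex III, 16 to complex IV and 18 to complex V. The 95 records carried 94 symbols, because Atp5o was listed under 2 identifiers and one of them was at 0 in every library. Not every record codes for a subunit: 8 were Ndufaf assembly factors, which help to build complex I, and 4 were processed pseudogenes (Cox6c2, Ndufa11b, Ndufb4c and Ndufs6b). The genes lay on 19 chromosomes.

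Livers of 2 genotypes were compared in 6 polyA RNA libraries. The p21TKO group (3 libraries) carried p21-/-, mTR-/- and Wrn-/-, and the DKO group (3 libraries) carried mTR-/- and Wrn-/-. All mice were of generation 3 (G3), so loss of mTR and Wrn, and the telomere shortening it brings over generations, was shared by both groups and no library had intact mTR and Wrn. The comparison asks which transcripts differ when p21 (Cdkn1a), an inhibitor of the cell cycle, is also deleted in mice with progeroid signs. The labels name no Cre driver or tissue-specific deletion. All titles share the tag 2M, which is not explained, and age, sex and separate animals are not stated otherwise; the p-values then reflect library-to-library spread only, part of which may be technical. Values below are FPKM, read counts scaled to exon length and to library size, and a run of 3 values follows replicates 1, 2 and 3 of the group named.

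The respiratory chain passes electrons from NADH (complex I) and succinate (complex II) through complex III to oxygen at complex IV. Complexes I, III and IV pump protons across the inner mitochondrial membrane, and complex V lets them return to make ATP. Most subunits are encoded in the nucleus and imported, and are built together with a smaller set encoded in mitochondrial DNA; complex II is wholly nuclear. Hepatocytes are rich in mitochondria and use this ATP for urea, glucose and lipid synthesis.

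Several transcription factors are known to act on promoters of these genes, among them NRF1, the ETS factor GABPA, YY1 and the estrogen-related receptors. Promoter sequence from RefSeq (GRCm38.p6, 250 bases before to 50 after each start) was found for 72 of the 94 symbols. The NRF1 type (GCGC, any 2 bases, GCGC) stood in 29.2% of these 72 promoters and in 9.61% of 17492 protein-coding promoters. CCGGAAG, the ETS type, stood in 26.4% of the 72 and in 12.9% of all. AANATGGCG, the YY1 type, stood in 15.3% of the 72 and in 3.64% of all. TNAAGGTCA, the receptor type, stood in 4.17% against 1.19%, and TATAAA in 11.1% against 14.8%. Both strands were searched, and different motifs were allowed to overlap. At least 1 of the first 4 motifs was present in 61.1% of the 72 promoters and in 23.9% of all. These matches describe letters, not binding.

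A promoter stretch of 1 gene of each complex is shown, so that the letters can be seen in genes whose levels are described below. Capitals mark the NRF1-type and ETS-type letters, and each stretch lies before the start on the minus strand.
Ndufa8 (complex I, chr2:36049349-36049378): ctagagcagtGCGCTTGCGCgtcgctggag
Sdhd (complex II, chr9:50603879-50603938): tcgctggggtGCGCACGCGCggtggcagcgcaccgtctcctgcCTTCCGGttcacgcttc
Uqcr11 (complex III, chr10:80406871-80406897): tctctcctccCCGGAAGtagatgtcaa
Cox6a1 (complex IV, chr5:115348959-115349130): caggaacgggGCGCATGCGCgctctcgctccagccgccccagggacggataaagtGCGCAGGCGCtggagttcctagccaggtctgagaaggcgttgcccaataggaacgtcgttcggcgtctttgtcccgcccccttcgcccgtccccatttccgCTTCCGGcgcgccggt
Atp5g2 (complex V, chr15:102671070-102671099): ggctccggccGCGCATGCGCagagccttcc
In Ndufa8 the NRF1-type letters began 30 bases before the start, and in Atp5g2 42 bases before it. Sdhd held NRF1-type letters from 79 and ETS-type letters from 46 bases before the start. It also held receptor-type letters 36 bases after the start, outside the stretch shown. Uqcr11 held ETS-type letters from 66 bases before it. Cox6a1 held the NRF1 type from 162 and 117 bases and the ETS type from 16 bases before the start.

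No respiratory chain gene passed the test between genotypes. The p21TKO mean was the higher one for 9 of 9 tested genes in complex IV (median log2 difference 0.26), 6 of 8 in complex III (0.19), 13 of 17 in complex V (0.14), 30 of 47 in complex I (0.06) and 1 of 4 in complex II (-0.08). In complex IV, the differences of Cox6a1, Cox6b1 and Cox8a were close to 0. They turned negative when libraries were scaled to an equal FPKM total without mitochondrially encoded genes, which shifted all genes. The differences were small beside the spread within a group. The larger of the 2 group SDs on the log2 scale exceeded the difference for 77 of 85 genes. It did so for 6682 of all 9538 tested genes. The 85 were those with a mean of at least 1 FPKM over the 6 libraries. They were tested with limma on log2(FPKM + 1) among 9538 such genes, with Benjamini-Hochberg adjustment over all of them and a call at an adjusted p under 0.05. Adding 1 shrinks the differences of low genes.

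Of the 85 genes, 0 were called, where 0.0734% of all tested genes (7 of 9538) were. The smallest adjusted p in limma was 0.523 (Ndufs6b). At an unadjusted p under 0.05 there was 1 gene, the same Ndufs6b, against 9.38% of all tested genes, and limma voom on recovered reads gave 0 at either threshold. The 2 groups did not overlap in 3 of the 85 genes (3.53%), which were Ndufb11, Ndufaf7 and Atp5mpl, all with p21TKO above; over all tested genes the share was 15.4%, of which p21TKO lay above in 6.93% and below in 8.49%. The mean was higher in p21TKO livers for 59 of the 85 genes (69.4%) and lower for 26, against 50.2% higher among all genes, and the median log2 difference was 0.09 against 0.00 for all genes. An exact permutation test of 3 against 3 libraries cannot go below p = 0.1.

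That lean changed with single libraries. Without p21TKO 1 the median was -0.11, with 30 genes higher and 55 lower and 0 called, where 5.19% of all tested genes then were, and without DKO 1 it was -0.05, with 34 higher and 51 lower. It was larger without DKO 2 (median 0.21, 70 higher and 15 lower), without p21TKO 2 (0.23, 69 and 16), without p21TKO 3 (0.18, 69 and 16) and with a term for Y-linked transcripts in the fit (0.24, 72 and 13). Over the fits that left out 1 library, the median ran from -0.16 to 0.19 in complex I, -0.21 to 0.04 in complex II, 0.01 to 0.36 in complex III, 0.01 to 0.46 in complex IV and 0.00 to 0.33 in complex V. The lowest values came without p21TKO 1 in complexes I, II and IV, without DKO 1 in complex V, and with either of these 2 left out in complex III. Scaling each library to an equal FPKM total, with mitochondrially encoded genes left out, moved the median of all genes to -0.10. That of the 85 moved to -0.03 (35 higher and 50 lower). Relative to all genes the 85 then stood at 0.07, against 0.09 under the deposited scaling.

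**Figure D1:**
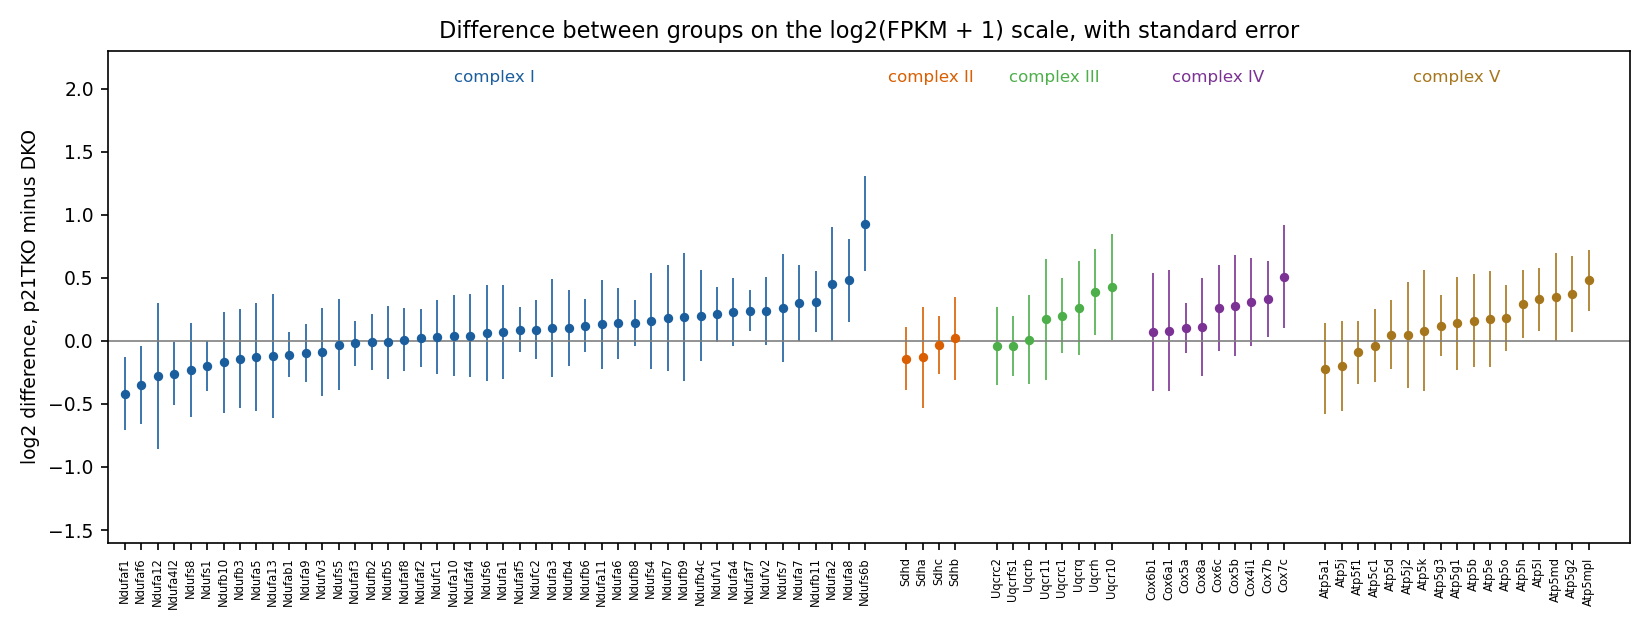
Difference between p21TKO and DKO livers for the tested genes, on the log2(FPKM + 1) scale (y axis), ordered within each complex (x axis). Points are limma estimates and bars their standard errors. The estimates run from -0.42 to 0.93, and no gene passed an adjusted p of 0.05.

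Complex I takes electrons from NADH. Its 47 tested records summed to 3352, 2008 and 2157 FPKM in p21TKO livers and to 1776, 2901 and 2134 FPKM in DKO livers. The groups overlapped, with p21TKO 1 and DKO 2 above the other 4 libraries. Ndufa8, an accessory subunit, had 160, 124 and 119 FPKM in p21TKO livers and 74.8, 144 and 80.2 FPKM in DKO livers. Only DKO 2 reached the p21TKO range, and the log2 difference was 0.48 ± 0.33 (SE; adjusted p = 0.626, limma). Ndufb11, an accessory subunit of the membrane arm, had 163, 176 and 149.5 FPKM in p21TKO livers and 114.5, 141 and 138 FPKM in DKO livers. All p21TKO libraries lay above all DKO libraries, with a log2 difference of 0.31 ± 0.24 (SE; adjusted p = 0.658). Ndufb11 has a near-identical copy, Gm6444, so its reads are uncertain. Ndufa4 was the highest of the group, at 233, 207 and 197 FPKM in p21TKO livers and 143, 208 and 197 FPKM in DKO livers. Its groups overlapped (log2 difference 0.23 ± 0.27 SE, adjusted p = 0.766). By its name it is grouped here, although its protein is now placed in complex IV.

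Core subunits, which carry the flavin and the iron-sulfur clusters, are described by their role. The flavin-binding subunit Ndufv1 had 45.5, 54.2 and 45.9 FPKM in p21TKO livers and 36.7, 40.8 and 48.1 FPKM in DKO livers. Ndufs1, the largest subunit, had 10.03, 10.3 and 8.35 FPKM in p21TKO livers and 9.996, 9.84 and 13.8 FPKM in DKO livers. Neither followed the high p21TKO 1 and DKO 2 seen in the sum, and their log2 differences were 0.21 (adjusted p = 0.736) and -0.20 (adjusted p = 0.726). Ndufs7, which carries the last cluster before ubiquinone, did follow it. It had 78.9, 40.7 and 46.0 FPKM in p21TKO livers and 31.1, 77.9 and 35.5 FPKM in DKO livers, a log2 difference of 0.26 (adjusted p = 0.848).

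The 8 assembly factors were low, with summed values of 91.0, 56.8 and 72.7 FPKM in p21TKO livers and 70.1, 85.3 and 75.5 FPKM in DKO livers. Of these, 5 had a higher and 3 a lower mean in p21TKO livers, and the median log2 difference was 0.01. Ndufaf1 had the lowest log2 difference of all 85 genes. Its values were 17.96, 10.8 and 8.49 FPKM in p21TKO livers and 14.1, 16.8 and 17.9 FPKM in DKO livers, with p21TKO 2 and 3 low and p21TKO 1 level with the top of the DKO range (log2 difference -0.42 ± 0.29 SE, adjusted p = 0.623). Ndufaf7, a mitochondrial methyltransferase, had 3.48, 3.59 and 4.84 FPKM in p21TKO livers and 3.33, 2.88 and 3.37 FPKM in DKO livers. Its groups did not overlap, though p21TKO 1 and DKO 3 were close (log2 difference 0.24 ± 0.16 SE, adjusted p = 0.62).

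Ndufs6b, a processed pseudogene of the zinc-binding subunit Ndufs6, had the largest difference. Its values were 7.12, 3.25 and 3.93 FPKM in p21TKO livers and 1.32, 3.87 and 1.16 FPKM in DKO livers. They rest on few recovered reads, 48, 26 and 37 in p21TKO livers and 11, 29 and 9 in DKO livers. The groups overlapped through DKO 2, with a log2 difference of 0.93 ± 0.38 (SE; adjusted p = 0.523, limma). The parent Ndufs6 had 132, 59.6 and 74.8 FPKM in p21TKO livers and 61.1, 108 and 77.9 FPKM in DKO livers, a log2 difference of 0.06. Reads of the pair could have been split between them by the counting.

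Complex II, succinate dehydrogenase, also works in the citric acid cycle. Sdha, the flavoprotein that oxidizes succinate, had 51.8, 94.0 and 52.6 FPKM in p21TKO livers and 76.8, 43.5 and 100 FPKM in DKO livers. Here p21TKO 2 and DKO 3 were highest and DKO 2 lowest (log2 difference -0.13 ± 0.40 SE, adjusted p = 0.924). Sdhb, the iron-sulfur subunit, had the other order, with 134, 77.8 and 73.0 FPKM in p21TKO livers and 73.9, 116 and 84.4 FPKM in DKO livers. Its log2 difference was 0.02 ± 0.33 (SE, adjusted p = 0.986). The membrane anchors Sdhc and Sdhd bind ubiquinone. Sdhc had 60.1, 46.1 and 42.6 FPKM in p21TKO livers and 45.6, 53.1 and 51.5 FPKM in DKO livers (log2 difference -0.03, adjusted p = 0.975). Sdhd had 168, 129 and 128 FPKM in p21TKO livers and 147, 157 and 160 FPKM in DKO livers (log2 difference -0.14, adjusted p = 0.858). In both anchors p21TKO 1 was highest and p21TKO 2 and 3 were near or below the lowest DKO library. Sdhb and Sdhc were so near 0 that their sign depended on the scaling chosen, and no direction is given for either.

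Complex III moves electrons from ubiquinol to cytochrome c. Its highest genes were small subunits. Uqcr10 had 346, 188 and 293 FPKM in p21TKO livers and 135, 321 and 177 FPKM in DKO livers (log2 difference 0.43 ± 0.42 SE, adjusted p = 0.721). Uqcr11 had 413, 163 and 200.3 FPKM in p21TKO livers and 151, 340 and 183 FPKM in DKO livers (log2 difference 0.17 ± 0.48 SE, adjusted p = 0.91). In both genes p21TKO 1 and DKO 2 were the 2 highest libraries and DKO 1 the lowest. Uqcrh, the hinge protein that contacts cytochrome c1, had 208, 123 and 150 FPKM in p21TKO livers and 88.5, 161 and 119 FPKM in DKO livers (log2 difference 0.39 ± 0.34 SE, adjusted p = 0.691). Uqcrq had 326, 193 and 222 FPKM in p21TKO livers and 152, 299 and 180 FPKM in DKO livers (log2 difference 0.26, adjusted p = 0.813). Both had the library order of Uqcr10, from p21TKO 1 at the top to DKO 1 at the bottom.

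The larger complex III subunits did not share that order. Uqcrfs1, the Rieske iron-sulfur protein that takes the first electron from ubiquinol, had 154, 159 and 153 FPKM in p21TKO livers and 146, 153 and 180 FPKM in DKO livers. It averaged 155 ± 3.22 FPKM in p21TKO livers and 160 ± 17.9 FPKM in DKO livers (SD, n = 3 each). The log2 difference was -0.04 ± 0.24 (SE). Uqcrc2, a core protein, had 44.3, 77.1 and 58.3 FPKM in p21TKO livers and 59.0, 46.6 and 78.9 FPKM in DKO livers. In Uqcrc2 p21TKO 1 and DKO 2 were the 2 lowest libraries. Uqcrc1, its partner, was listed at only 3.77, 1.74 and 1.07 FPKM in p21TKO livers and 1.48, 1.62 and 1.73 FPKM in DKO livers (log2 difference 0.20 ± 0.30 SE, adjusted p = 0.823). The reason for the low listing of a stoichiometric partner was not tested.

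**Figure D2:**
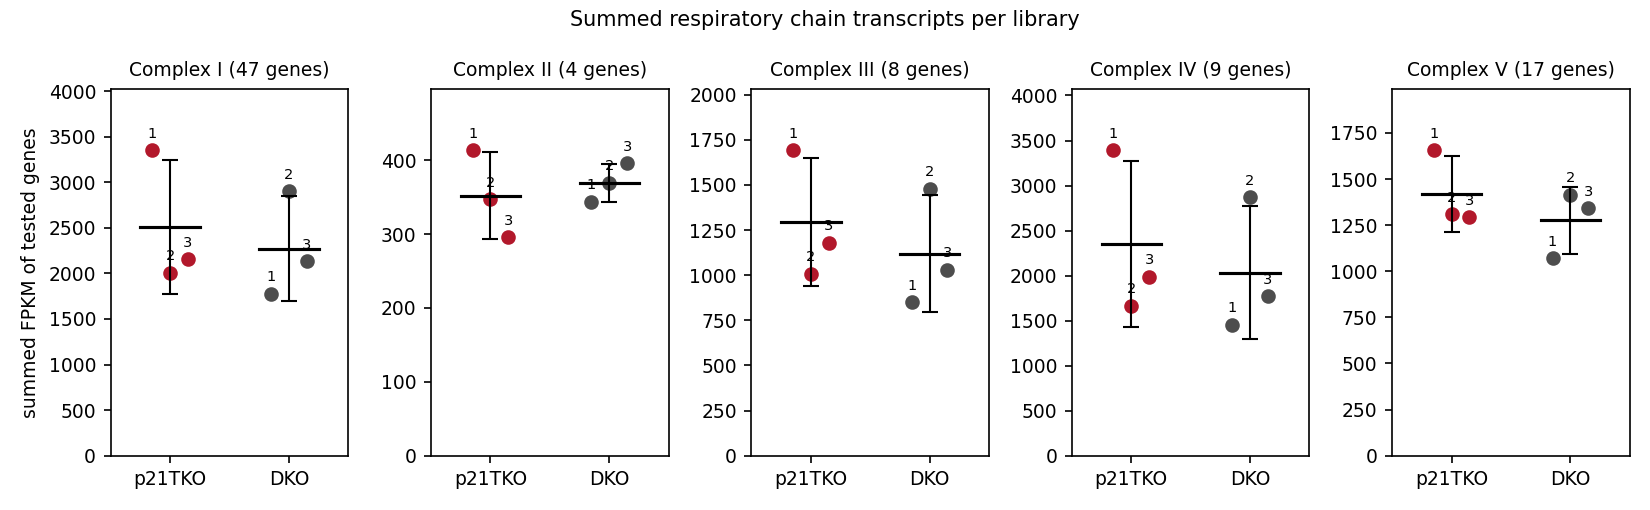
Summed FPKM of the tested genes of each complex (y axis, from 0) in p21TKO and DKO livers (x axis). Points are libraries with their replicate number, horizontal lines the means and bars the SD over 3 libraries. The groups overlap in every complex, and p21TKO 1 is the highest library in each.

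Complex IV, cytochrome c oxidase, reduces oxygen. Its nuclear subunits surround a core that mitochondrial DNA encodes. Cox6a1 was the highest of all 95 genes, at 1010, 437 and 480.3 FPKM in p21TKO livers and 402, 923 and 484 FPKM in DKO livers. It averaged 642 ± 319 FPKM in p21TKO livers and 603 ± 280.3 FPKM in DKO livers (SD, n = 3 each). The range within each genotype far exceeded the distance between their means, and the log2 difference was 0.08 ± 0.48 (SE, adjusted p = 0.962). Cox8a, a small membrane subunit, had 632, 326 and 392 FPKM in p21TKO livers and 314, 574 and 354 FPKM in DKO livers (log2 difference 0.11 ± 0.39 SE). Cox6b1, which faces cytochrome c, had 462, 180.2 and 216 FPKM in p21TKO livers and 176, 373 and 236 FPKM in DKO livers (log2 difference 0.07 ± 0.47 SE). For Cox6a1, Cox8a and Cox6b1 no direction is given, since differences this near 0 take their sign from the scaling chosen.

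Cox7c had the smallest p of complex IV. It had 420.5, 181 and 279 FPKM in p21TKO livers and 150, 270.0 and 181 FPKM in DKO livers (log2 difference 0.51 ± 0.41 SE, adjusted p = 0.666). Its groups overlapped, since p21TKO 2 lay below DKO 2 and level with DKO 3. Cox4i1, the regulatory subunit that binds ATP, had 404, 257 and 257 FPKM in p21TKO livers and 182, 338 and 225 FPKM in DKO livers (log2 difference 0.31 ± 0.35 SE, adjusted p = 0.76). Cox7b had 176, 120.2 and 165 FPKM in p21TKO livers and 94.0, 154 and 121 FPKM in DKO livers (log2 difference 0.33 ± 0.30 SE, adjusted p = 0.71). In both of these genes the lowest library was DKO 1 and the highest p21TKO 1. Cox6c had a log2 difference of 0.26 (adjusted p = 0.797) and Cox5b of 0.28 (adjusted p = 0.81). Without p21TKO 1 these were 0.01 and -0.02, and leaving out 1 library moved Cox7c between 0.21 and 0.82. Cox5a stood apart from the rest of the complex, at 39.3, 41.2 and 36.4 FPKM in p21TKO livers and 32.0, 36.5 and 40.6 FPKM in DKO livers. Its libraries lay within a narrow range.

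Complex V, ATP synthase, has a catalytic head, a stalk and a membrane ring. Atp5b, the catalytic beta subunit and the highest gene of this complex, had 157, 294 and 229 FPKM in p21TKO livers and 202, 143 and 265 FPKM in DKO livers (log2 difference 0.16 ± 0.37 SE, adjusted p = 0.892). Atp5a1, the alpha subunit, was listed far lower, at 5.09, 9.32 and 6.39 FPKM in p21TKO livers and 6.46, 5.59 and 13.8 FPKM in DKO livers (log2 difference -0.22 ± 0.36 SE). In both head subunits p21TKO 2 and DKO 3 were the 2 highest libraries, unlike most of these genes. The reason for the gap between the 2 levels, which belong to partners of equal number in the head, was not tested. Atp5mpl, a small membrane proteolipid, had the smallest p of the complex. It had 71.0, 70.2 and 87.5 FPKM in p21TKO livers and 45.6, 55.1 and 62.6 FPKM in DKO livers. All p21TKO libraries lay above all DKO libraries, and the log2 difference was 0.48 ± 0.24 (SE; adjusted p = 0.544, limma).

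Among the other membrane subunits, Atp5md (known as DAPIT, which helps ATP synthase to form dimers) had 84.5, 45.8 and 59.5 FPKM in p21TKO livers and 35.1, 67.8 and 46.2 FPKM in DKO livers (log2 difference 0.35 ± 0.35 SE, adjusted p = 0.726). Atp5l, subunit g, had 27.4, 17.4 and 22.1 FPKM in p21TKO livers and 13.4, 19.9 and 19.3 FPKM in DKO livers (log2 difference 0.33 ± 0.25 SE, adjusted p = 0.66). Both had p21TKO 1 highest and DKO 1 lowest. Atp5h, stalk subunit d, had 148, 107 and 112 FPKM in p21TKO livers and 84.9, 120.0 and 95.03 FPKM in DKO livers (log2 difference 0.29 ± 0.27 SE, adjusted p = 0.712). Near-identical copies make these genes uncertain: Atp5l had 14, Atp5h 6 and Atp5md 2. The copy Gm10221 held 216, 150 and 168 FPKM in p21TKO livers and 87.0, 165 and 132 FPKM in DKO livers. These values are above those of Atp5l, but Gm10221 has 309 exon bases and Atp5l has 6443. In recovered reads Gm10221 was lower, with 646 to 1405 per library against 2073 to 3846 for Atp5l.

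What the genes shared most was their order over the 6 libraries, not a difference between genotypes. The deviation of each gene from its own mean over the libraries, on the log2 scale, had a median over the 85 genes of 0.50, -0.24 and -0.09 in p21TKO livers and of -0.31, 0.28 and -0.10 in DKO livers. The same medians over all 9538 genes were 0.02, -0.03 and -0.01 in p21TKO livers and -0.02, 0.02 and 0.01 in DKO livers. In FPKM the 85 genes summed to 10510, 6338 and 6912 in p21TKO livers and 5496, 9033 and 6675 in DKO livers, or 7920 ± 2262 and 7068 ± 1801 (SD, n = 3 each). The widest gap thus lay between p21TKO 1 and DKO 1, with DKO 2 second to p21TKO 1. All 9538 tested genes summed to 472100, 429000 and 382200 FPKM in p21TKO livers and 365600, 498800 and 398100 FPKM in DKO livers. This total was also highest in DKO 2 and p21TKO 1 and lowest in DKO 1.

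p21TKO 1 was the highest of the 6 libraries for 64 of the 85 genes (75.3%), against 18.5% of all tested genes. DKO 1 was the lowest for 42 (49.4%, against 17.2%) and the highest for 0. The 2 highest libraries were p21TKO 1 and DKO 2 for 57 genes (67.1%, against 18.1%). The pattern crossed the complexes unevenly: complex IV had median deviations of 0.63, -0.35 and -0.04 in p21TKO livers and -0.53, 0.33 and -0.23 in DKO livers. Complex II had 0.23, -0.15 and -0.26 in p21TKO livers and -0.06, 0.09 and 0.08 in DKO livers. These shares are descriptions of 6 libraries, with genes that are not independent of each other, and carry no test.

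**Figure D3:**
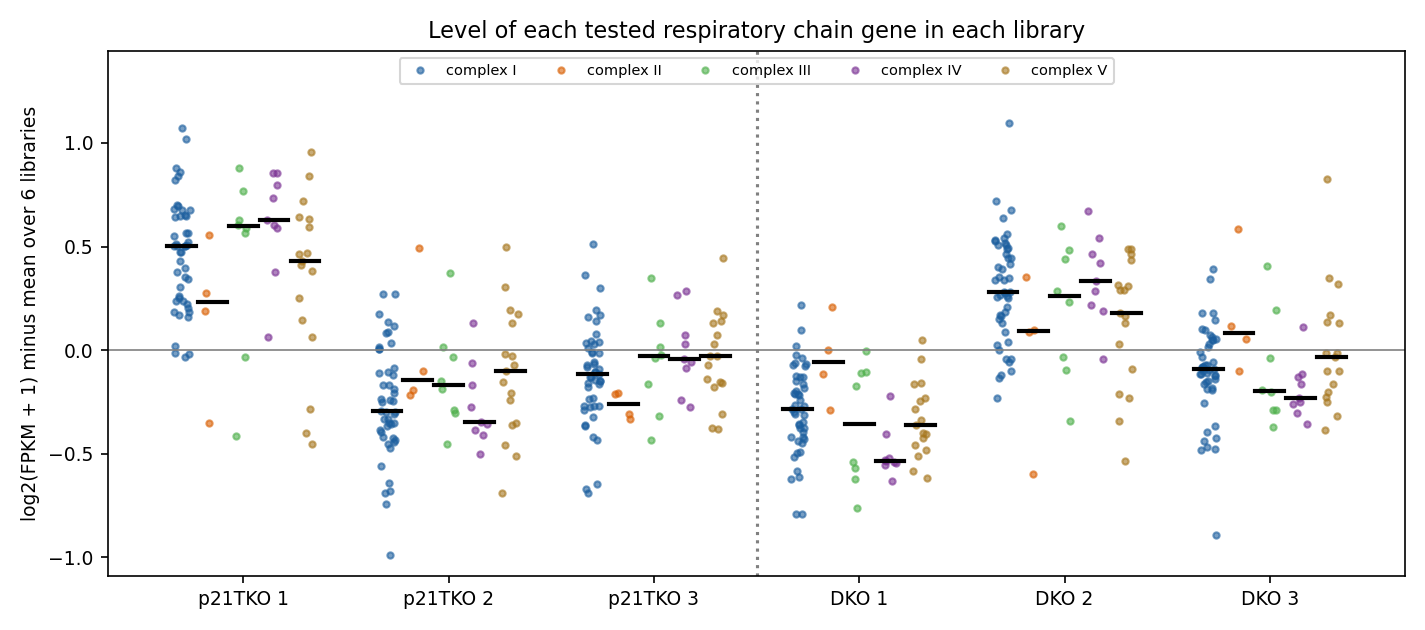
Level of each of the 85 tested genes in each library as log2(FPKM + 1) minus its mean over the 6 libraries (y axis), by library (x axis) and complex (colour). Short black lines are medians of a complex. Points of p21TKO 1 and DKO 2 lie mostly above 0 and those of DKO 1 mostly below it, with the overall medians 0.50, 0.28 and -0.31.

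A smaller set had other libraries on top. For 10 genes (11.8%, against 6.49% of all tested genes) the 2 highest libraries were p21TKO 2 and DKO 3: Ndufs1, Ndufv1, Sdha, Uqcrc2, Uqcrfs1, Cox5a, Atp5a1, Atp5b, Atp5f1 and Atp5g3, a set chosen after its values were seen. Both Atp5a1 and Atp5b of the ATP synthase head are in it, while other core subunits, such as Ndufs7, Ndufs8 and Sdhb, had p21TKO 1 and DKO 2 on top. Within the set, Ndufv1, Uqcrfs1, Cox5a and Atp5g3 still had DKO 1 as their lowest library. Transcripts of the set ran from 645 bases (Cox5a) to 2900 bases (Sdha).

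Transcript length moved with the library order. Principal transcripts of 83 tested genes were 371 to 4715 bases long, with a median of 908, against a median of 2759 over 8596 protein-coding genes tested. In the 17 genes under 600 bases the median deviation was 0.64, -0.31 and -0.06 in p21TKO livers and -0.49, 0.39 and -0.20 in DKO livers. In the 10 genes of 2000 bases or more it was 0.26, -0.20 and -0.17 in p21TKO livers and -0.17, 0.22 and -0.01 in DKO livers. All 127 protein-coding genes under 600 bases had medians of 0.34, -0.16 and 0.16 in p21TKO livers and -0.41, 0.23 and -0.30 in DKO livers. The 110 of them outside the respiratory chain had 0.31, -0.13 and 0.28 in p21TKO livers and -0.37, 0.18 and -0.33 in DKO livers. They too stood high in p21TKO 1 and DKO 2 and low in DKO 1, but also high in p21TKO 3 and low in DKO 3. Over the 83 genes, Spearman's rho between deviation and transcript length was -0.43, 0.28 and -0.19 in p21TKO livers and 0.49, -0.31 and 0.37 in DKO livers; over the 8596 genes it was -0.22, 0.04 and -0.10 in p21TKO livers and 0.27, -0.18 and 0.32 in DKO livers. All genes of a library share its RNA and its depth. The part that length played in the order of the libraries was not tested.

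**Figure D4:**
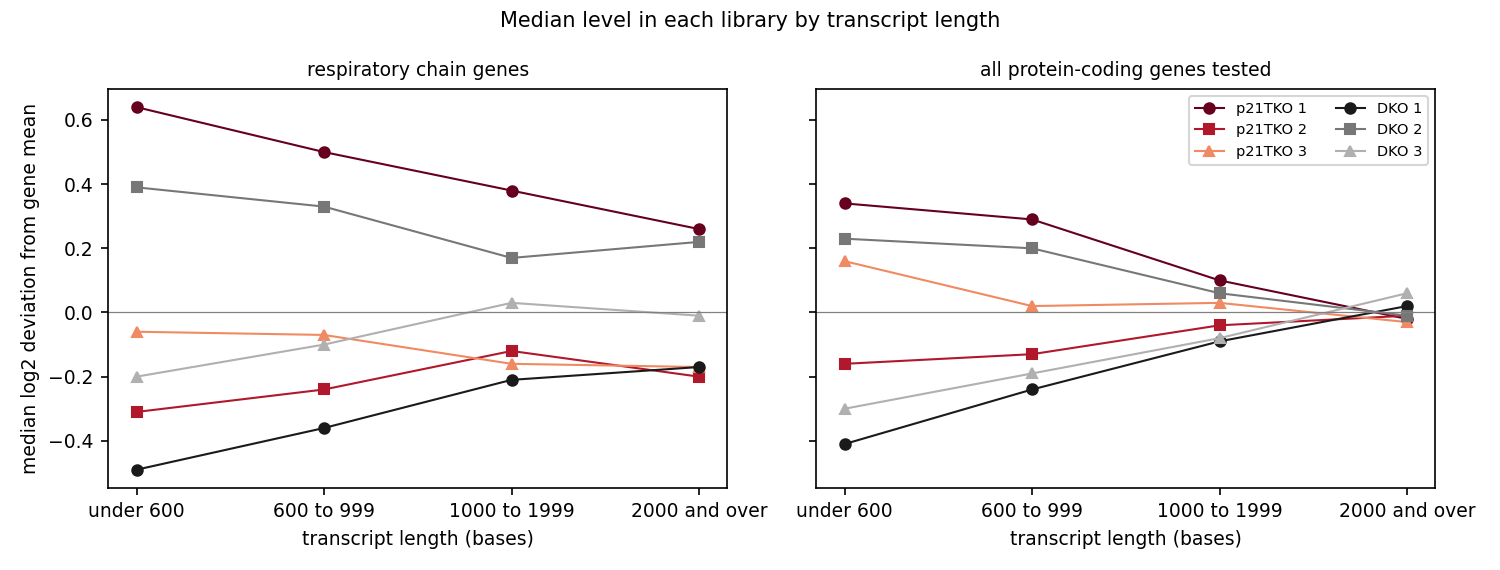
Median deviation from the gene mean (log2, y axis) in each library by transcript length (x axis), for respiratory chain genes (left) and all protein-coding genes tested (right). Under 600 bases, p21TKO 1 is at 0.64 and DKO 1 at -0.49 among respiratory chain genes, against 0.34 and -0.41 among all genes.

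Some other sets of genes also stood highest in p21TKO 1 and DKO 2. Median deviations of complex III assembly factors were 0.25, -0.31 and -0.23 in p21TKO livers and -0.04, 0.25 and 0.0 in DKO livers. Those of complex IV assembly factors were 0.20, -0.20 and -0.01 in p21TKO livers and -0.09, 0.18 and -0.04 in DKO livers. Complex I assembly factors outside the Nduf names and the citric acid cycle list, both described below, did not share this order. Mitochondrially encoded messenger RNAs summed to 63300, 27810 and 34450 FPKM in p21TKO livers and to 48110, 100600 and 51160 FPKM in DKO livers. Erythroid markers summed to 680, 492 and 16.97 FPKM in p21TKO livers and to 103, 546 and 212 FPKM in DKO livers. Y-linked transcripts split the libraries another way: they were present in p21TKO 1, DKO 2 and DKO 3 and absent from the other 3 libraries. Among libraries with them (1 p21TKO against 2 DKO) the median log2 difference of the 85 genes was 0.39, and among those without them (2 against 1) it was 0.17. The part of sex, blood or mitochondrial content in the order was not tested.

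In complex IV, subunits with alternative genes had nearly all their RNA from 1 gene in every library. Cox4i1, Cox6a1 and Cox6b1 each gave at least 99.9% of the FPKM of their pair. Their partners are known from other tissues: Cox4i2 from lung, Cox6a2 from heart and skeletal muscle, Cox6b2 from testis. Cox4i2 had 0.459, 0.0553 and 0 FPKM in p21TKO livers and 0.211, 0.413 and 0 FPKM in DKO livers. Cox6a2 and Cox6b2 did not pass 0.336 FPKM in any library. Cox7b2, Cox8b and Cox8c were at 0 in all 6 libraries, where 3 reads, the limit a count of 0 allows, would have given 0.205 to 0.43 FPKM. This limit covers counting error only. The muscle markers Ckm, Acta1, Myh7 and Mb and the testis markers Prm1 and Tnp1 were at 0 in every library too.

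Ndufa4l2, the hypoxia-inducible relative of Ndufa4, had 1.60, 0.676 and 0.641 FPKM in p21TKO livers and 1.25, 1.87 and 0.904 FPKM in DKO livers (log2 difference -0.26 ± 0.25 SE, adjusted p = 0.719). It gave at most 0.89% of the pair. Subunit c of the ATP synthase ring is the one with 3 active genes, which differ in their import sequence and code for the same mature protein. Atp5g3 gave 47.9%, 62.5% and 53.4% of their summed FPKM in p21TKO livers and 60.0%, 48.9% and 64.4% in DKO livers. Atp5g2 gave 34.9%, 27.9% and 35.3% in p21TKO livers and 28.1%, 35.1% and 24.6% in DKO livers, and Atp5g1 the rest. The share of Atp5g3 was lowest in p21TKO 1 and DKO 2, and the groups overlapped. In FPKM, Atp5g3 had 138, 152 and 126 in p21TKO livers and 112, 124 and 145 in DKO livers. Atp5g2 had a log2 difference of 0.37 ± 0.30 (SE, adjusted p = 0.674) and Atp5g1 of 0.14 ± 0.37 (SE, adjusted p = 0.905). Atp5g1 and Atp5g2 have 4 near-identical copies each, so all 3 shares are uncertain. The shares also depend on the exon length used. It was 1.04, 2.29 and 3.02 times the principal transcript in Atp5g1, Atp5g2 and Atp5g3. Per principal transcript length, their means over the 6 libraries were 32.6, 171 and 401 FPKM. The copy Gm10039 of Atp5g1 held 148, 97.0 and 88.1 FPKM in p21TKO livers and 94.1, 148 and 94.6 FPKM in DKO livers. Gm10039 has 411 exon bases and Atp5g1 has 4912. In recovered reads Gm10039 held 864 to 1313 per library and Atp5g1 2609 to 4732.

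**Figure D5:**
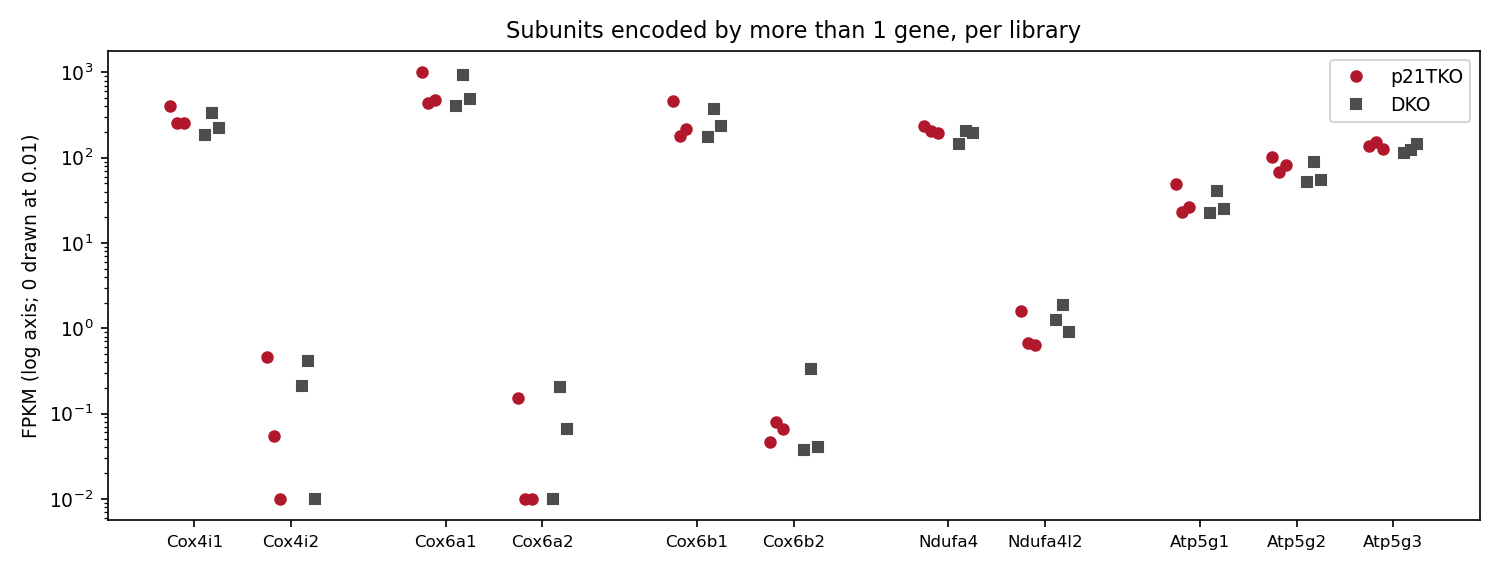
FPKM per library (y axis, log scale, 0 drawn at 0.01) of genes that encode alternative forms of 1 subunit, with p21TKO left of DKO. Cox4i1, Cox6a1 and Cox6b1 lie between 176 and 1010 FPKM and their alternatives at or under 0.459 FPKM.

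Ndufs3, a core subunit of complex I, was listed at 0.0711 FPKM in p21TKO 1 and at 0 in the other 5 libraries. A processed pseudogene of it, Gm12251 (chromosome 11, 58392769 to 58393560, GRCm38), had 20.3, 10.1 and 11.3 FPKM in p21TKO livers and 7.36, 18.4 and 11.1 FPKM in DKO livers. p21TKO 1 and DKO 2 were its highest libraries, as in 33 of the 47 tested complex I genes, and DKO 1 its lowest, as in 18 of the 47. The 792 bases of Gm12251 aligned without gaps to the Ndufs3 transcript (chromosome 2) with 11 mismatches, an identity of 98.6%. A stretch of 90 bases shows how few letters separate them, with the differing bases in capitals.
Ndufs3 (bases 194 to 283 of the transcript): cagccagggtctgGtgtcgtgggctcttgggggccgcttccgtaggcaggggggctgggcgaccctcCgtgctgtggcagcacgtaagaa
Gm12251 (bases 14 to 103 of the transcript): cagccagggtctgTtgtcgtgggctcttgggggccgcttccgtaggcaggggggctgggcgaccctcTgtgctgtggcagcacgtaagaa
The differences are G207T and C261T, with Ndufs3 first and positions counted from the first base of its GENCODE M21 transcript. Whether the reads listed under Gm12251 came from Ndufs3 was not tested.

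In all, 36 of the 95 genes had at least 1 transcript elsewhere with 90% identity over 50% or more of their length, 32 of them among the tested ones. Ndufa4, Cox5a, Cox5b, Cox6a1, Cox7c and Atp5b, described above without that caution, were among the 36. The 53 tested genes without such a copy had a median log2 difference of 0.07, with 33 higher and 20 lower in p21TKO livers. Tested genes held 9 to 28583 reads per library, with a median of 2200, so counting error was small for most of them beside the spread between libraries.

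Genes that work with the respiratory chain were counted from lists chosen by function. No gene of any list was called. Assembly factors outside the Nduf names gave 2 higher and 8 lower of 10 for complex I (median log2 difference -0.07), 1 and 3 of 4 for complex II (-0.06), 0 and 5 of 5 for complex III (-0.09), 11 and 9 of 20 for complex IV (0.01) and 0 and 3 of 3 for complex V (-0.08). Atpaf1, a chaperone of the ATP synthase beta subunit, had 1.42, 1.62 and 1.86 FPKM in p21TKO livers and 2.06, 1.92 and 2.13 FPKM in DKO livers. Its p21TKO values all lay below its DKO values, with a log2 difference of -0.21 ± 0.14 (SE, adjusted p = 0.611). Acad9, a complex I assembly factor, had a log2 difference of -0.36 ± 0.23 (SE, adjusted p = 0.611), and Tmem126b of -0.31 ± 0.20 (SE, adjusted p = 0.604). The complex IV factor Coa5 had -0.34 (adjusted p = 0.666).

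Mitochondrially encoded messenger RNAs, the partners of the nuclear subunits within complexes I, III, IV and V, had 1 higher and 12 lower of 13, with a median log2 difference of -0.80. Their median deviations were 0.49, -0.97 and -0.76 in p21TKO livers and -0.02, 1.12 and 0.06 in DKO livers. By these medians p21TKO 1 stood above DKO 1 and DKO 3. The groups did not overlap in 3 of the 13 (23.1%, against 15.4% of all tested genes), among them mt-Nd4l and mt-Nd5. The smallest adjusted p of the 13 in limma was 0.18, for mt-Nd4l, a membrane subunit of complex I. It had 62.1, 20.98 and 25.8 FPKM in p21TKO livers and 202, 182 and 233 FPKM in DKO livers (log2 difference -2.63 ± 0.42 SE). Every p21TKO library was far below every DKO library, but the test over all genes was not passed. mt-Nd5 had 1806, 1140 and 1491 FPKM in p21TKO livers and 2628, 4483 and 2556 FPKM in DKO livers (log2 difference -1.10 ± 0.38 SE, adjusted p = 0.523). Nuclear complex I genes, with a median of 0.06, did not share that negative median.

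Electron carriers and coenzyme Q synthesis genes had 6 higher and 10 lower of 16. Coq7, the hydroxylase of the penultimate step of coenzyme Q synthesis, had 3.90, 3.399 and 4.84 FPKM in p21TKO livers and 2.08, 1.71 and 2.12 FPKM in DKO livers. The groups did not overlap (log2 difference 0.76 ± 0.16 SE, adjusted p = 0.41). Coq2, the prenyltransferase of the pathway, had 10.3, 9.76 and 10.6 FPKM in p21TKO livers and 12.5, 12.5 and 12.0 FPKM in DKO livers, again without overlap and in the other direction (log2 difference -0.25 ± 0.15 SE, adjusted p = 0.597). Cyc1, the cytochrome c1 of complex III that the naming rule leaves out, had a log2 difference of -0.08 (adjusted p = 0.93).

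The citric acid cycle list, which also holds pyruvate dehydrogenase subunits and pyruvate carboxylase, had 9 higher and 10 lower of 19. Its median log2 difference was -0.01. Suclg2, a subunit of the GTP-forming succinyl-CoA ligase, had 46.9, 44.7 and 31.0 FPKM in p21TKO livers and 54.8, 52.7 and 55.4 FPKM in DKO livers, without overlap (log2 difference -0.42 ± 0.24 SE, adjusted p = 0.576). Regulators of mitochondrial biogenesis had 3 higher and 7 lower of 10. Gabpa, the ETS factor named with the promoter letters, had 5.20, 5.02 and 4.60 FPKM in p21TKO livers and 8.66, 5.03 and 7.79 FPKM in DKO livers (log2 difference -0.43 ± 0.21 SE, adjusted p = 0.542). DKO 1 and DKO 3 lay above all p21TKO libraries, and DKO 2 was level with them. Other abundant mitochondrial proteins had 12 higher and 4 lower of 16 (median 0.18), among them the outer membrane channel Vdac3 with a log2 difference of 0.28 ± 0.17 (SE, adjusted p = 0.585).

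Depth and identity of the libraries bear on all of this. The FPKM denominators were 19363284 to 27061290 reads in p21TKO libraries and 21516838 to 24027505 in DKO libraries. Cdkn1a, the targeted gene, had 1.41, 11.1 and 6.50 FPKM in the libraries labelled p21TKO and 0.761, 1.79 and 0.405 FPKM in those labelled DKO; which part of the gene is deleted is not given, so its level does not check the labels. Wrn stayed between 0.197 and 0.294 FPKM, and Terc was at 0 in all libraries. The first principal component (57.2% of variance) set p21TKO 2 and p21TKO 3 apart from the other 4 libraries. Across genes, p21TKO 1 and DKO 2 were the most alike of the 15 pairs of libraries (Pearson's r = 0.978), above the closest pair within a genotype (0.961). Without p21TKO 2 and p21TKO 3 the median log2 difference of the 85 genes was 0.55, with p21TKO 1 alone left in its group. Hepatocyte markers summed to 50550 to 56070 FPKM in p21TKO livers and 41500 to 50380 FPKM in DKO livers, neutrophil markers to 23.7 to 532 and 9.84 to 27.0, and Kupffer cell markers to 12.7 to 103 and 16.5 to 39.6. Sums that did not overlap were those of hepatocyte markers, stellate markers (29.6 to 40.1 in p21TKO and 16.6 to 27.4 in DKO livers), biliary markers (1.42 to 5.34 and 0.477 to 0.901) and lymphocyte markers (0.144 to 0.665 and 1.07 to 1.72). No biliary or lymphocyte marker reached a mean of 1 FPKM, so those sums lie near the floor. The part of these cell types in the levels described was not tested. In whole liver, a change in the cells present and a change of RNA per cell cannot be told apart.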

How the data were processed

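The 6 liver polyA libraries, 3 per genotype, were grouped by the sample titles. Per the labels' protocols, TRIzol RNA went into the NEBNext Ultra kit. Whether strand was kept is not given in these sources. The authors deposited gene expression as FPKM. The submitters' processing notes list DESeq2 1.20.0, featureCounts 1.5.0-p3, HISAT2 2.0.5, fastp and CASAVA 1.8. These notes name human builds, while the identifiers are mouse, so coordinates were taken from GENCODE M21 (GRCm38; 55480 of 55573 identifiers matched). FPKM spread reads over all exons of a gene: for 26 genes that length exceeded the principal transcript more than 2-fold, which lowers their FPKM.

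Values were used as deposited. Genes with a mean of at least 1 FPKM entered a two-sided test in limma 3.58.1 under R 4.3.3, on the log2(FPKM + 1) scale. It used an intensity trend and Benjamini-Hochberg adjustment over all genes. The test was also run on simulated reads, where genes varied independently and changes were larger than those of the respiratory chain genes. That run therefore does not check the test for differences as small as theirs. FPKM times exon length gave whole reads within 0.02 for 99.3% of values, and limma voom on those reads was an alternative. It called 1 gene of the table. Near-identical copies were found with BLAST 2.17.0 among M21 transcripts (e-value under 1e-20). Other work used Python 3.11.15.

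The genes, lists and tests were chosen with earlier results of these data known. Named were, per complex, the 5 tested genes with the smallest p and the highest one, all 4 complex II genes and alternative subunit forms. From the other lists only some of the 3 genes with the smallest p are named, and none from the assembly factors of complexes II and III. Further genes are named for their role or copies, or after their values were seen. Alternatives were the pseudocount, filter, scaling, variance model, replicate block, a sex term and leaving out libraries. The counts include 1 gene that is not reported here by name or in the plot of differences.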

Additional observations from a re-analysis of the deposited data

How the results depend on the processing

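No respiratory chain gene was called in any alternative tried. Genes called across the table were 7 as reported; they were 1 without a filter, 4 with a mean of at least 5 FPKM, 12 without mitochondrially encoded genes in the total, 1 with voom and 2 without p21TKO 2 and 3 together, and 1 to 495 when each library was left out in turn (495, or 5.19%, without p21TKO 1, where the smallest adjusted p of a respiratory chain gene was 0.082). The median log2 difference of the 85 genes was 0.55 without p21TKO 2 and 3 and -0.11 to 0.23 when 1 library was left out. With the replicate block it stayed 0.09, and 0 genes of the table were called; replicate numbers did not pair the libraries (correlations of same-numbered deviations -0.44, -0.49 and -0.07), so the block is shown only here. No gene in these reversals was called. With quantile normalization Sdhc stood at 0.05 and with the sex term at 0.08. Without mitochondrially encoded genes in the total, Sdhb stood at -0.11, Cox6a1 at -0.05, Cox6b1 at -0.06, Cox8a at -0.02 and Atp5g3 at -0.01. Without p21TKO 2 and 3, Ndufaf1 stood at 0.14, Sdhd at 0.12, Sdhc at 0.26, Atp5b at -0.32 and Ndufa4l2 at 0.17. The cause was not tested.
Leaving out 1 library in turn moved Sdhb from -0.25 to 0.20, Uqcr11 from -0.22 to 0.52, Cox6a1 from -0.30 to 0.43, Cox6b1 from -0.34 to 0.36, Cox8a from -0.16 to 0.37, Atp5g1 from -0.18 to 0.39, Sdhc from -0.17 to 0.07, Atp5b from -0.07 to 0.40, Sdha from -0.46 to 0.13, Uqcrc1 from -0.13 to 0.47 and Cox5b from -0.02 to 0.56. Depth limits mainly genes with few reads, such as the alternative subunit forms and Ndufs6b.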
